A study of Homo sapiens with 10 samples.

Results

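The transcripts described here encode the machinery that writes, copies and erases DNA methylation, together with the corepressor complex through which KRAB zinc finger proteins silence chromatin. The 10 genes were chosen by name, as the rows of the count table whose Ensembl identifier maps in GENCODE 44 to DNMT1, DNMT3A, DNMT3B, UHRF1, TET1, TET2, TET3, TRIM28, SETDB1 or ATF7IP, and all 10 were found among the 60448 genes of the table. They were measured by RNA-seq in untreated monolayers of 2 human lines of endothelial cells, EA.hy926 and HMEC-1, with 5 biological replicates of each line, so the comparison asks how far the resting lines differ in these transcripts. EA.hy926 is a hybrid of umbilical vein endothelial cells and the lung carcinoma line A549, and it was grown in Advanced DMEM with serum. HMEC-1 is a line of dermal microvascular endothelial cells immortalized with SV40 large T antigen. It was grown in MCDB 131 with epidermal growth factor, hydrocortisone and a higher percentage of serum than EA.hy926. Both lines are labelled WT, and each is 1 established line, so the line, its immortalization and its medium cannot be told apart. DNA methylation, histone marks and protein levels were not among the measurements.

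In mammalian cells, DNMT1 copies methylation of CpG dinucleotides onto the new DNA strand after replication, and it is brought there by UHRF1. DNMT3A and DNMT3B place methylation on unmethylated DNA, whereas the TET enzymes oxidize 5-methylcytosine and so start its removal. KRAB zinc finger proteins bind DNA, often in transposable elements, and recruit TRIM28 (KAP1), which brings in the histone H3 lysine 9 methyltransferase SETDB1 with its partner ATF7IP. Germline genes such as the MAGE genes are classical examples of genes whose promoters are methylated in most somatic cells.

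The deposited raw counts gave library totals between 34846046 and 39899324 in EA.hy926 and between 33391640 and 43877224 in HMEC-1. The filter on low counts kept 16310 genes. Levels are given as CPM, the count relative to a fixed library size after the library total was scaled by TMM factors, which correct for differences in RNA composition, and log2FC is the log2 of the level in EA.hy926 over that in HMEC-1. Of 10 endothelial marker genes, 6 were higher in EA.hy926 by the thresholds used below and 1 was lower, EMCN, with 0 to 2 counts there. Summed over the list, endothelial markers lay between 4016 and 4634 CPM in EA.hy926, compared with 1426 to 1457 CPM in HMEC-1, and epithelial markers between 1275 and 1389 CPM against 425 to 487 CPM. The epithelial sums were carried by KRT7, KRT8 and KRT18, and of 8 epithelial markers 2 were higher in EA.hy926 by both thresholds (EPCAM and KRT8) and 2 lower (KRT19 and CLDN4, log2FC -4.71 and -1.42), with CDH1 and ESRP1 at 0 to 2 counts in every library. Of 9 fibroblast and blood markers, 5 passed the filter and were lower in EA.hy926 by both thresholds. The sum was 1.07 to 1.69 CPM against 474 to 503 CPM, with COL1A1 alone at 358 ± 9.29 CPM (SD, n = 5) in HMEC-1. The fibroblast genes DCN and LUM were at 0 in all 10 libraries. By both thresholds, 19.1% of all genes tested were higher in EA.hy926 and 16.4% lower. COL1A1, COL1A2, COL3A1, CD14, KRT19 and EMCN had at most 15 counts in any EA.hy926 library. They passed the filter only through HMEC-1, so their direction was fixed in advance. EPCAM, with 4 to 22 counts in HMEC-1, likewise passed only through EA.hy926. The part of these marker differences in the results below was not tested, and in such bulk samples fewer cells of a type and less RNA per cell cannot be told apart.

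None of the 10 genes passed both thresholds (adjusted p below 0.05 with an absolute log2FC above 1), which 35.5% of all genes tested did (19.1% higher and 16.4% lower in EA.hy926). DESeq2 and limma-voom likewise gave 0, and 9 had an unadjusted p under 0.05. By adjusted p alone, 3 of the 10 were higher in EA.hy926 (ATF7IP, TRIM28 and DNMT3A) and 6 were lower (DNMT3B, TET3, TET2, TET1, SETDB1 and DNMT1), against 42.6% and 43.3% of all genes tested and 85.8% in either direction, and UHRF1 did not pass. The CPM ranges of the lines did not overlap for 9 of the 10 genes, compared with 77.4% of all genes tested. The median absolute log2FC was 0.45 over the 10 genes and 0.65 over all genes tested, and the median log2FC was -0.28 and -0.0105. The share of genes passing the test therefore lay near the background, and the sizes of the differences were below it.

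**Figure D1:**
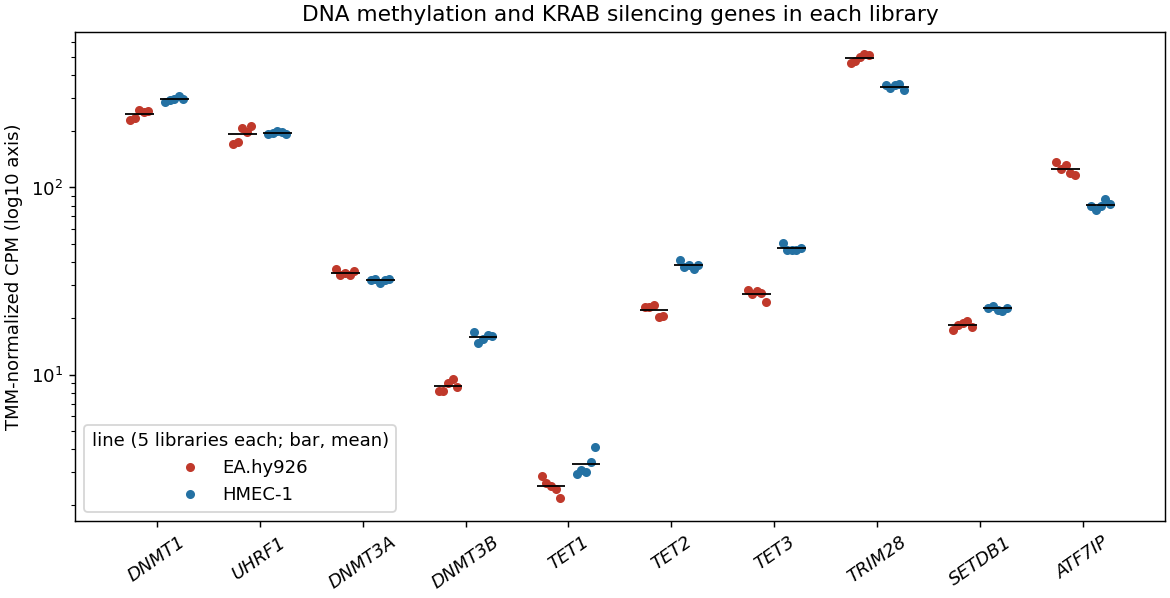
CPM (log axis) of the 10 genes in every library, with 5 points per line in the order of the replicate numbers and a black bar at the mean of each line. The ranges of the lines are separate for every gene apart from UHRF1, and the widest separations are those of DNMT3B, TET2, TET3 and ATF7IP.

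Maintenance methylation was represented by DNMT1 (ENSG00000130816) and UHRF1 (ENSG00000276043), both on chromosome 19 in GRCh38, at 10133342 to 10231286 on the minus strand and at 4903080 to 4962154 on the plus strand. Of their annotated promoter windows, those that hold an E2F-type motif, a motif common in promoters of replication genes, are shown. The windows run from 250 bases before to 50 bases after a RefSeq start (GRCh38.p14) and are chr19:10194904-10195203 on the minus strand for DNMT1 and chr19:4909251-4909550 and chr19:4909894-4910193 on the plus strand for UHRF1, and capitals mark the motif, on whichever strand it lies.
DNMT1: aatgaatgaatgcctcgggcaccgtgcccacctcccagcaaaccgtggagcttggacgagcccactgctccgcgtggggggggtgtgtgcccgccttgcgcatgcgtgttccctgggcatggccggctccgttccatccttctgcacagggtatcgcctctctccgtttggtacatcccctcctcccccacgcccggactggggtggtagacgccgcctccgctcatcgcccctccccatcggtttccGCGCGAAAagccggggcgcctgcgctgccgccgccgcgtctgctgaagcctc
UHRF1, first window: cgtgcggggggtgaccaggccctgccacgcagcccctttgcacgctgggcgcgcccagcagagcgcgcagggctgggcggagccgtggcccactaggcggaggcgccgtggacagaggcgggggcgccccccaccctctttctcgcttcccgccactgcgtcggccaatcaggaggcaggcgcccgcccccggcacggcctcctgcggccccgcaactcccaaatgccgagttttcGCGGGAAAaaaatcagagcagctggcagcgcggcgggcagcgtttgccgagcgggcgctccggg
UHRF1, second window: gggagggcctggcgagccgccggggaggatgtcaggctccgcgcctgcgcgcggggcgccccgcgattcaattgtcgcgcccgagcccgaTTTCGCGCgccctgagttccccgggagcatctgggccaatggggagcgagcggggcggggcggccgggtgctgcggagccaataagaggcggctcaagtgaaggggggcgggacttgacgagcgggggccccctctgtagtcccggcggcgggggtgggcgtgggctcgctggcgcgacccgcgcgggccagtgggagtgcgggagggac

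The search used TTTCCCGC, TTTGGCGC, TTTCGCGC and TTTGCCGC on both strands. DNMT1 held TTTCGCGC on the opposite strand, the first UHRF1 window TTTCCCGC on the opposite strand and the second UHRF1 window TTTCGCGC on the gene's own strand. At least 1 of these motifs was present in 3 of 26 windows of the 9 genes with a RefSeq window, in 10 of 24 windows of the replication and cycling genes described below and in 3.31% of all 35116 windows. A further UHRF1 window, chr19:4910117-4910416, held none of them and 46 CpG dinucleotides. The match is a description of the letters only. The windows shown held 30, 36 and 40 CpG dinucleotides, whereas the median of all windows was 14.

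DNMT1, the maintenance methyltransferase, was measured at 231, 234, 258, 252 and 255 CPM in EA.hy926 replicates 1 to 5 and at 286, 294, 295, 308 and 298 CPM in HMEC-1. Every EA.hy926 library lay below every HMEC-1 library, and EA.hy926 replicates 1 and 2 were the lowest. The means were 246 ± 12.6 CPM and 296 ± 8.05 CPM (SD, n = 5), so DNMT1 was 1.20-fold higher in HMEC-1 (log2FC -0.27, SE 0.032, 95% interval -0.33 to -0.20, adjusted p = 8.79e-08). UHRF1, which recognizes hemimethylated DNA and recruits DNMT1, was measured at 172, 175, 209, 198 and 212 CPM in EA.hy926 and at 193, 195, 201, 199 and 194 CPM in HMEC-1. Replicates 1 and 2 of EA.hy926 lay below all HMEC-1 libraries and replicates 3 and 5 above them, so the ranges overlapped. The means were 193 ± 18.7 CPM and 196 ± 3.27 CPM (SD, n = 5), and the difference did not pass the test (log2FC -0.023, SE 0.046, 95% interval -0.12 to 0.072, adjusted p = 0.644). Leaving out EA.hy926 replicate 1 or 2 turned this value to 0.023 or 0.016, and when libraries were scaled by their totals instead of TMM factors UHRF1 was lower in EA.hy926 (log2FC -0.16, adjusted p = 0.0044).

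Genes of DNA replication and the cell cycle were also mostly lower in EA.hy926. Of 20 such genes, 1 was higher and 6 were lower in EA.hy926 by both thresholds, compared with 19.1% and 16.4% of all genes tested. By adjusted p alone 2 were higher and 18 lower, compared with 42.6% and 43.3%, and the median log2FC was -0.80. Their summed level was 3109, 3204, 3391, 3379.8 and 3430.3 CPM in EA.hy926 replicates 1 to 5, compared with 5405, 5510.2, 5515, 5589.8 and 5534 CPM in HMEC-1. As for DNMT1 and UHRF1, EA.hy926 replicates 1 and 2 had the lowest sums, and the part of this in the DNMT1 and UHRF1 values was not tested. GMNN (geminin, an inhibitor of replication licensing) stood at 18.5 ± 0.79 CPM and 84.1 ± 1.90 CPM (log2FC -2.19, SE 0.034, adjusted p = 6.59e-23), and CCNA2 (cyclin A2) at 89.0 ± 2.92 CPM and 260 ± 5.81 CPM (log2FC -1.55, adjusted p = 5.86e-22). CCNE2 (cyclin E2), 37.1% of whose exonic bases are shared with other annotated genes, had a log2FC of -1.96, whereas CCNE1 (cyclin E1) had one of 1.28 (adjusted p = 1.09e-17 and 7.28e-15). PCNA, the sliding clamp of replication, was chosen after its value was seen: it was higher in EA.hy926, with a log2FC of 0.27 (adjusted p = 1.9e-08).

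The de novo methyltransferases moved in opposite directions. DNMT3B (ENSG00000088305, chromosome 20, 32762385 to 32809359, plus strand) was measured at 8.18, 8.16, 8.97, 9.42 and 8.60 CPM in EA.hy926 and at 16.8, 14.7, 15.5, 16.2 and 16.2 CPM in HMEC-1. No EA.hy926 library came near the HMEC-1 range. With means of 8.67 ± 0.54 CPM and 15.9 ± 0.81 CPM (SD, n = 5), it was 1.83-fold higher in HMEC-1 (log2FC -0.87, SE 0.057, 95% interval -0.99 to -0.75, adjusted p = 5.34e-12), the largest difference of the 10 genes. DNMT3A (ENSG00000119772, chromosome 2, 25227855 to 25342590, minus strand) was measured at 36.8, 34.0, 34.9, 33.9 and 35.8 CPM in EA.hy926 and at 31.9, 32.4, 30.9, 31.9 and 32.4 CPM in HMEC-1. All EA.hy926 libraries lay above all HMEC-1 libraries, by a narrow margin. The means were 35.1 ± 1.23 CPM and 31.9 ± 0.60 CPM (SD, n = 5), a 1.10-fold higher level in EA.hy926 (log2FC 0.14, SE 0.035, 95% interval 0.063 to 0.21, adjusted p = 0.00122). This call rested on the scaling: with library totals the log2FC of DNMT3A was 0.0013 (adjusted p = 0.973), while that of DNMT3B was -1.005 and past both thresholds.

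As levels per kilobase of exon, DNMT3A exceeded DNMT3B 2.03 ± 0.17-fold in EA.hy926 (1.79 to 2.25 over the libraries) and 1.01 ± 0.056-fold in HMEC-1 (0.95 to 1.10), and these ranges did not overlap. DNMT1 made up 80.8 ± 0.74% of the summed DNMT level in EA.hy926 and 80.6 ± 0.62% in HMEC-1, and DNMT3B 6.36 ± 0.25% and 9.67 ± 0.51% (SD, n = 5). UHRF1 exceeded DNMT1 2.34 ± 0.11-fold and 1.98 ± 0.046-fold. The sizes of these quotients and shares depend on the length used. Per kilobase of the longest transcript, UHRF1 stood at 44.8 and DNMT1 at 34.4 CPM in EA.hy926, and at 45.55 and 41.4 in HMEC-1. DNMT3A and DNMT3B stood at 3.69 and 1.98 in EA.hy926, and at 3.36 and 3.63 in HMEC-1. These quotients are descriptions of the same levels and were given no test.

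All 3 TET genes were lower in EA.hy926. TET2 (ENSG00000168769, chromosome 4, 105145875 to 105279816, plus strand) was measured at 23.0, 23.0, 23.7, 20.2 and 20.6 CPM in EA.hy926 and at 40.8, 37.5, 38.8, 36.9 and 38.6 CPM in HMEC-1. The lowest HMEC-1 library was far above the highest EA.hy926 library. The means were 22.1 ± 1.57 CPM and 38.5 ± 1.48 CPM (SD, n = 5; log2FC -0.80, SE 0.046, 95% interval -0.90 to -0.71, adjusted p = 4.91e-13). TET3 (ENSG00000187605, chromosome 2, 73984910 to 74108176, plus strand) was measured at 28.4, 27.0, 28.1, 27.5 and 24.4 CPM in EA.hy926 and at 50.4, 46.4, 46.6, 46.6 and 47.7 CPM in HMEC-1. Again the groups were widely separated. Its means were 27.1 ± 1.62 CPM and 47.5 ± 1.67 CPM (SD, n = 5; log2FC -0.81, SE 0.041, 95% interval -0.90 to -0.73, adjusted p = 5.9e-14), and 3.01% of its exonic bases are shared with a long noncoding RNA.

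TET1 (ENSG00000138336, chromosome 10, 68560337 to 68694487, plus strand) was the least abundant of the 10 genes, with 81 to 106 counts in EA.hy926 against 103 to 156 in HMEC-1. It was measured at 2.87, 2.65, 2.53, 2.45 and 2.18 CPM in EA.hy926 and at 2.94, 3.09, 3.04, 3.41 and 4.08 CPM in HMEC-1. EA.hy926 replicate 1 came just below the lowest HMEC-1 library, and HMEC-1 replicate 5 was the highest of all. The means were 2.54 ± 0.25 CPM and 3.31 ± 0.47 CPM (SD, n = 5; log2FC -0.38, SE 0.12, 95% interval -0.63 to -0.14, adjusted p = 0.00445), and the interval was the widest of the 10. Per kilobase of exon, TET3 made up 56.6 ± 1.3% of the summed TET level in EA.hy926 and 57.8 ± 0.52% in HMEC-1, TET2 36.3 ± 1.33% and 36.8 ± 0.57%, and TET1 7.13 ± 0.38% and 5.42 ± 0.76%. The ranges of these shares overlapped between the lines for TET2 and TET3 and not for TET1. The summed DNMT level was 5.38 ± 0.49 times the summed TET level in EA.hy926 and 3.76 ± 0.18 times in HMEC-1. The sizes of these shares and quotients depend on the length used. Per kilobase of the longest transcript, TET3 and TET2 stood at 2.245 and 2.17 CPM in EA.hy926, and at 3.94 and 3.79 in HMEC-1.

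In the KRAB corepressor complex, TRIM28 and ATF7IP were higher in EA.hy926 and SETDB1 was lower. TRIM28 (ENSG00000130726, chromosome 19, 58544064 to 58550722, plus strand), the scaffold bound by KRAB domains, was measured at 465, 473, 496, 514 and 511 CPM in EA.hy926 and at 351, 340.1, 352, 358 and 330.1 CPM in HMEC-1. Every EA.hy926 library exceeded every HMEC-1 library, with replicates 1 and 2 again the lowest of EA.hy926. The means were 492 ± 21.9 CPM and 346 ± 11.0 CPM (SD, n = 5), a 1.42-fold higher level in EA.hy926 (log2FC 0.51, SE 0.031, 95% interval 0.44 to 0.57, adjusted p = 1.26e-12). ATF7IP (ENSG00000171681, chromosome 12, 14365676 to 14502931, plus strand), which stabilizes SETDB1 in the nucleus, was measured at 137, 125, 132, 119 and 117 CPM in EA.hy926 and at 80.1, 75.9, 79.2, 86.3 and 81.6 CPM in HMEC-1. The groups were far apart. Its means were 126 ± 8.63 CPM and 80.6 ± 3.83 CPM (SD, n = 5), a 1.56-fold higher level in EA.hy926 (log2FC 0.65, SE 0.041, 95% interval 0.56 to 0.73, adjusted p = 3.25e-12).

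SETDB1 (ENSG00000143379, chromosome 1, 150926263 to 150964744, plus strand), the methyltransferase of the complex, was measured at 17.4, 18.4, 18.8, 19.2 and 18.0 CPM in EA.hy926 and at 22.8, 23.4, 22.2, 21.8 and 22.8 CPM in HMEC-1. All EA.hy926 libraries were below all HMEC-1 libraries. The means were 18.4 ± 0.73 CPM and 22.6 ± 0.61 CPM (SD, n = 5; log2FC -0.30, SE 0.043, 95% interval -0.39 to -0.21, adjusted p = 1.33e-06). Because 12.85% of its exonic bases are shared with CERS2 and it is not given whether the counting used strand, reads of these genes may be mixed. Per kilobase of exon, TRIM28 exceeded SETDB1 45.9 ± 1.64-fold in EA.hy926 and 26.3 ± 1.43-fold in HMEC-1, and ATF7IP exceeded it 3.87 ± 0.37-fold and 2.01 ± 0.14-fold, with no overlap of the ranges. These sizes, too, depend on the length used. Per kilobase of the longest transcript, SETDB1 stood at 4.14 CPM in EA.hy926 and 5.09 in HMEC-1, TRIM28 at 146 and 103, and ATF7IP at 14.3 and 9.14.

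**Figure D2:**
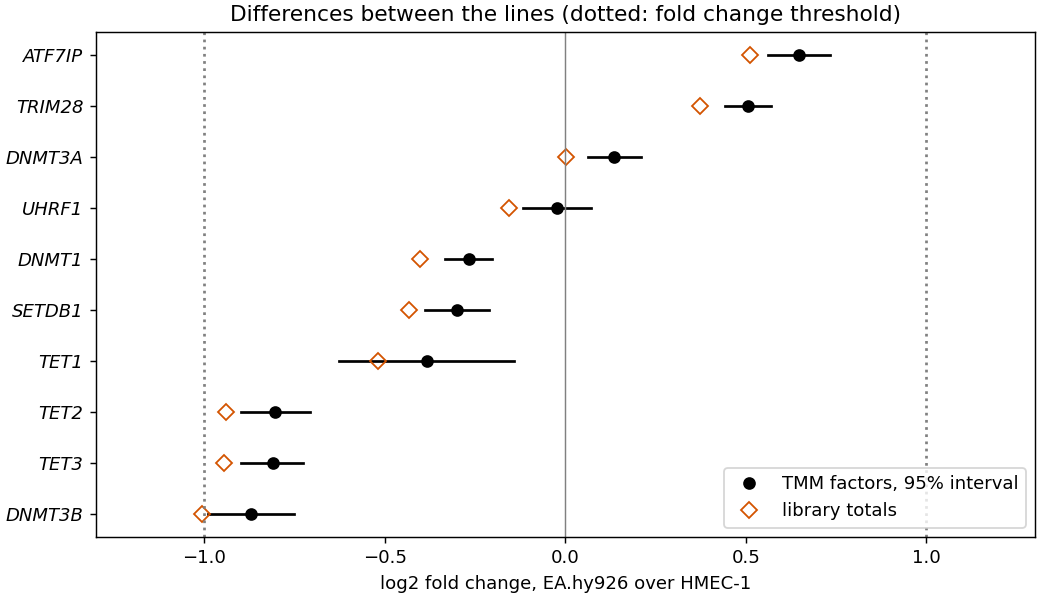
Fitted log2FC of the 10 genes, EA.hy926 over HMEC-1 (log2 scale), with 95% intervals as bars and dotted lines at an absolute log2FC of 1. Values run from -0.87 for DNMT3B to 0.65 for ATF7IP, and the interval of UHRF1 alone includes 0.

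The order of the transcripts by level per kilobase of exon was similar in the lines. TRIM28 was the most abundant, at 114 ± 5.08 CPM per kilobase in EA.hy926 and 80.4 ± 2.55 in HMEC-1, above 98.1% and 97.3% of the 16109 tested genes with a length. It was followed in both lines by UHRF1 (37.5 ± 3.64 and 38.1 ± 0.63), DNMT1 (16 ± 0.81 and 19.3 ± 0.52) and ATF7IP (9.60 ± 0.66 and 6.13 ± 0.29), and none of these 4 overlapped its neighbour. In EA.hy926 the order went on with DNMT3A (2.55 ± 0.089), SETDB1 (2.49 ± 0.099), TET3 (2.09 ± 0.12), TET2 (1.34 ± 0.095) and DNMT3B (1.26 ± 0.078). The ranges of DNMT3A and SETDB1 overlapped, as did those of TET2 and DNMT3B. In HMEC-1 it went on with TET3 (3.67 ± 0.13), SETDB1 (3.06 ± 0.083), TET2 (2.34 ± 0.090), DNMT3A (2.32 ± 0.044) and DNMT3B (2.31 ± 0.12), of which the last 3 were not separated. TET1 came last in both, at 0.26 ± 0.026 and 0.34 ± 0.049 CPM per kilobase (SD, n = 5), above 16.2% and 19.96% of the tested genes. With the length of the longest transcript in place of all exonic bases, only neighbours among DNMT3A, SETDB1, TET3 and DNMT3B changed places.

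**Figure D3:**
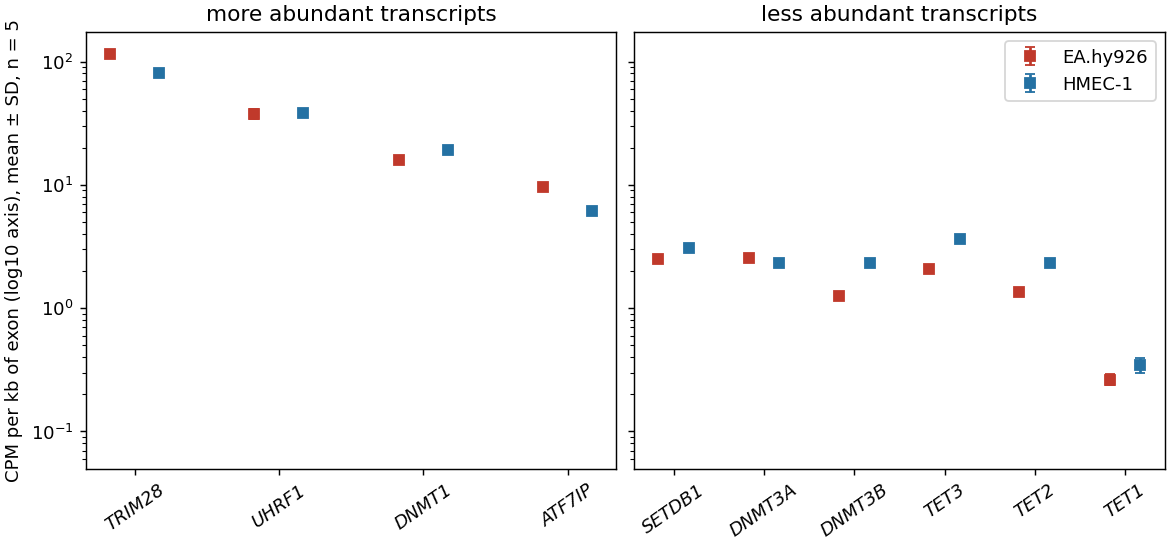
Mean level of each gene in CPM per kilobase of exon (log axis) in EA.hy926 and HMEC-1, with bars of 1 SD over 5 libraries that are mostly smaller than the symbols. TRIM28 stands highest and TET1 lowest in both lines, and TET3 and DNMT3B sit higher in HMEC-1.

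Among 18 readers of DNA methylation and partners of the DNMT enzymes, 15 were tested. By both thresholds 1 was higher and 1 lower in EA.hy926, where 35.5% of all genes tested passed in either direction. By adjusted p alone 3 were higher and 11 lower, where 85.8% of all genes passed, and the median log2FC was -0.35. ZBTB33 (Kaiso, a methyl-CpG binding zinc finger protein) stood at 104 ± 3.16 CPM in EA.hy926, compared with 41.1 ± 1.29 CPM in HMEC-1 (SD, n = 5; log2FC 1.34, SE 0.031, adjusted p = 4.62e-20). CDCA7, which activates the remodeller HELLS, stood at 22.6 ± 2.20 CPM and 77.7 ± 1.83 CPM (log2FC -1.78, SE 0.047, adjusted p = 4.72e-19). Chosen after their values were seen, HELLS itself had a log2FC of -0.76 and the UHRF1 paralog UHRF2 one of -0.73 (adjusted p = 3.02e-15 and 1.4e-16). ZBTB38 and CDCA7L, chosen in the same way, were higher in EA.hy926 (log2FC 0.59 and 0.16, adjusted p = 4.71e-16 and 7.22e-05). For CDCA7L, 21.4% of exonic bases are shared with another annotated gene. DNMT3L, DPPA3 and ZFP57, germline or early embryonic factors, were untested, with at most 4 counts in any library.

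Of 17 genes of oxidation, base excision and TET cofactor supply, 16 were tested. By both thresholds 2 were higher and 2 lower (35.5% of all genes tested passed), and by adjusted p alone 8 were higher and 7 lower (85.8% of all genes), with a median log2FC of 0.12. GADD45A (log2FC 1.05, SE 0.036, adjusted p = 4.66e-17) and SMUG1, a uracil DNA glycosylase (log2FC 1.02, SE 0.048, adjusted p = 1.43e-14), were higher in EA.hy926. IDH2, the mitochondrial isocitrate dehydrogenase, stood at 35.2 ± 1.38 CPM and 96.6 ± 2.01 CPM (log2FC -1.46, SE 0.031, adjusted p = 1.36e-20), and GADD45B at 36.9 ± 1.95 CPM and 83.3 ± 6.49 CPM (log2FC -1.17, SE 0.048, adjusted p = 1.17e-15). Chosen after their values were seen, the glycosylases TDG and MBD4, which act on mismatched or oxidized bases at CpG sites, had log2FC values of -0.69 and -0.72 (adjusted p = 3.88e-14 and 6.99e-15). The excision genes APEX1 and UNG, chosen in the same way, were higher in EA.hy926 (log2FC 0.86 and 0.59, adjusted p = 1.81e-18 and 3.47e-13). SMUG1 fell just under the fold threshold when HMEC-1 replicate 2 or 4 was left out (log2FC 0.991 and 0.985). Tested against a null of an absolute log2FC of 1, 2 genes of the list passed, and with library totals GADD45A and SMUG1 fell under the fold threshold (log2FC 0.91 and 0.88).

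All 20 heterochromatin partners of TRIM28 and SETDB1 were tested, and 1 was higher and 1 lower by both thresholds (35.5% of all genes passed), while 5 were higher and 15 lower by adjusted p alone (85.8% of all genes), with a median log2FC of -0.34. RESF1, a partner of SETDB1 in retroelement silencing, had the largest difference of the list. It stood at 226 ± 18.0 CPM in EA.hy926, compared with 29.7 ± 1.63 CPM in HMEC-1 (SD, n = 5; log2FC 2.93, SE 0.049, adjusted p = 1.96e-22). ATF7IP2, the paralog of ATF7IP, went the other way, with 22 to 33 counts in EA.hy926 against 105 to 140 in HMEC-1 (log2FC -2.03, SE 0.14, adjusted p = 7.56e-12). The genes of the HP1 proteins CBX1, CBX3 and CBX5, chosen after their values were seen, had log2FC values of -0.53, -0.45 and -0.21 (adjusted p = 2.96e-13, 6.8e-14 and 1.72e-06).

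None of 8 genes of the HUSH and ATRX-DAXX complexes passed both thresholds, by which 35.5% of all genes were called. By adjusted p alone 3 were higher and 4 lower, against 42.6% and 43.3% of all genes tested (median log2FC -0.084). MPHOSPH8, the HUSH subunit that binds methylated H3 lysine 9, lay just inside the fold threshold (48.3 ± 1.59 and 95.6 ± 3.96 CPM, log2FC -0.99, adjusted p = 3.61e-17), whereas the HUSH scaffold TASOR had a log2FC of 0.56 (adjusted p = 2.52e-12). Both were chosen after their values were seen. None of 9 H3 lysine 9 demethylases passed both thresholds, and by adjusted p alone 5 were higher and 2 lower (median log2FC 0.12). For both lists, the share passing adjusted p lay near the 85.8% of all genes tested.

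**Figure D4:**
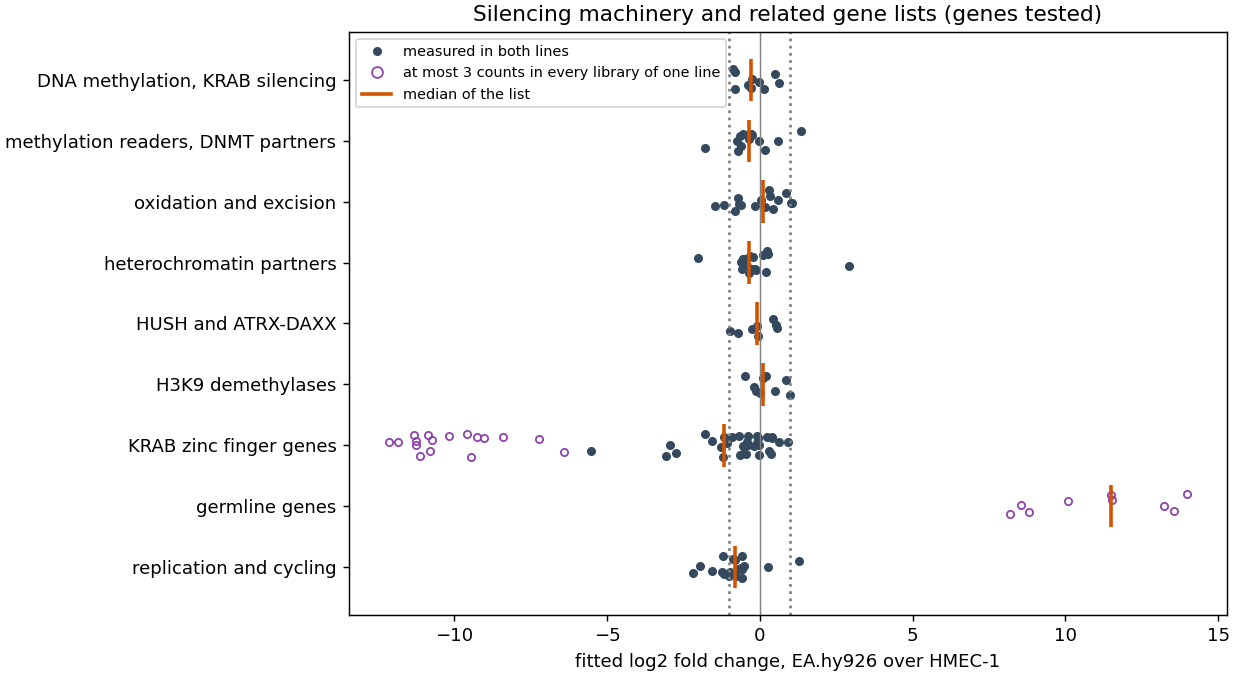
Fitted log2FC (EA.hy926 over HMEC-1) of the tested genes of the 10 silencing genes and of each related list, with the list median as an orange bar and dotted lines at an absolute log2FC of 1. Open purple points have at most 3 counts in every library of one line, so their fitted values are no measure of size. The medians of the reader, oxidation, heterochromatin, HUSH and demethylase lists lie between -0.35 and 0.12, and that of the KRAB zinc finger genes at -1.17.

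KRAB zinc finger genes encode the proteins that recruit TRIM28. The list was chosen with earlier results of these data known, so its counts are a description and not those of an unbiased sample of the family. Of 54 in the list, 17 had at most 3 counts in every EA.hy926 library and over 3 in every HMEC-1 library, 0 showed the reverse, and 3 had at most 3 counts in all 10 libraries. In the whole table, 1.38% of genes had the first pattern and 1.26% the reverse. Of these 60448 genes, 37014 had at most 3 counts in all 10 libraries and can show neither pattern, so the shares among counted genes are larger. Of the 17 genes, 14 were on chromosome 19, which carries 38 of the 54. ZNF91, a repressor of SVA and L1 elements, had 0 counts in all EA.hy926 libraries and 522 to 672 in HMEC-1, a level at least 163-fold lower in EA.hy926. ZNF85 had 0 counts against 435 to 531 (at least 132-fold lower) and ZNF93, a repressor of L1 elements, 0 against 264 to 364 (at least 91.9-fold lower). These bounds set the mean CPM of HMEC-1 over the CPM that 3 counts make in a library, and over the 17 genes they ran from 5.34 to 172-fold with a median of 66.7-fold.

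By the thresholds, 0 of 51 tested KRAB zinc finger genes were higher and 27 lower in EA.hy926, with a median log2FC of -1.17 that is the same with the 17 genes at their bounds. A gene at or near 0 in EA.hy926 entered the test only through HMEC-1. Of the 34 genes with over 3 counts in a library of both lines, 0 were higher and 10 lower by both thresholds (19.1% and 16.4% of all genes tested), and by adjusted p alone 7 were higher and 21 lower (42.6% and 43.3%), with a median log2FC of -0.43. The 10 include ZNF649, with 3 to 10 counts in EA.hy926, which also passed the filter only through HMEC-1. When 10 counts were required in every library, 9 genes of the list passed both thresholds. Of all 13107 genes tested at that setting, 1857 were higher and 1398 lower. The summed level of the list was 421 to 427 CPM in EA.hy926, compared with 637 to 657 CPM in HMEC-1. Several of these genes are close paralogs in clusters, and the counting of reads shared between paralogs is not given.

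Germline genes went the other way, in a list also chosen with earlier results of these data known. Of 26 in the list, 10 had at most 3 counts in every HMEC-1 library and over 3 in every EA.hy926 library, 0 showed the reverse, and 13 had at most 3 counts in all 10 libraries. In the whole table, 1.26% of genes had the first pattern and 1.38% the reverse, and 37014 of 60448 had at most 3 counts in all 10 libraries. Of the 10 listed genes with the first pattern, 7 were on chromosome X. The list was rich in genes of that chromosome and also holds MAGEA4, CTAG2 and PAGE2 from it. MAGEA12 had 1743 to 2099 counts in EA.hy926 and none in HMEC-1 (at least 618-fold higher). MAGEA3 had 1245 to 1579 counts against 0 (at least 462-fold higher) and MAGEA6 1018 to 1304 against 0 (at least 369-fold higher), and as near-identical copies these genes can share reads, so their separate values are uncertain. The bounds of the 10 genes ran from 7.22 to 618-fold with a median of 76.2-fold, and the list summed to 163 to 173 CPM in EA.hy926, compared with 0 to 0.32 CPM in HMEC-1. The germline genes DAZL, TDRD1, TEX101 and TUBA3C, chosen after their values were seen, had 0 counts in all 10 libraries. So did MAGEA4, CTAG2 and PAGE2 of chromosome X, chosen in the same way.

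Promoters of a KRAB zinc finger gene and of germline genes named above are shown, since CpG dinucleotides are the substrate of the enzymes above, and capitals mark each CpG. They are RefSeq windows of GRCh38.p14 in the gene's orientation, chr19:23395422-23395721 on the minus strand for ZNF91, chrX:152733507-152733806 on the plus strand for MAGEA12 and chrX:152698544-152698843 on the plus strand for MAGEA3.
ZNF91: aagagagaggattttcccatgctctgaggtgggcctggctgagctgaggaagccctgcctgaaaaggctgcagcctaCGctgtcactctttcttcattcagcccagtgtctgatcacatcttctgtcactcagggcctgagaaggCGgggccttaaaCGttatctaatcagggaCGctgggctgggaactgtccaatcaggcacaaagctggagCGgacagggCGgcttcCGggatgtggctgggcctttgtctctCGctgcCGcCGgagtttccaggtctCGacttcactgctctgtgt
MAGEA12: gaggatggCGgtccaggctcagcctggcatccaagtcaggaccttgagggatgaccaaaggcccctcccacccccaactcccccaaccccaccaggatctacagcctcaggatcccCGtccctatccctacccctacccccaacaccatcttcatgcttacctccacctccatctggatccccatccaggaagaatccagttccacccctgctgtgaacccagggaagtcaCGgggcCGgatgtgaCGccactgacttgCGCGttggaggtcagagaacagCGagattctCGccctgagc
MAGEA3: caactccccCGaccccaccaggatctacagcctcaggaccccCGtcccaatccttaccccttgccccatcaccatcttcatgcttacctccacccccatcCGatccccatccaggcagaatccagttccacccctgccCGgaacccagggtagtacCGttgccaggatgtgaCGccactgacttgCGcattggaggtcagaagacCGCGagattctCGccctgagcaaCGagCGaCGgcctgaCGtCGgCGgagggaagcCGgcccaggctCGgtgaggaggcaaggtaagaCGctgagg

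These windows held 11, 9 and 19 CpG dinucleotides. A second MAGEA12 window, chrX:152733612-152733911, held 15, and the MAGEA6 window was identical to that of MAGEA3 over all 300 bases. The median was 17 over 61 windows of the KRAB zinc finger genes, 19 over 34 windows of the germline genes and 14 over all windows. The counts of CpG describe the sequence and say nothing of its methylation in these cells.

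**Figure D5:**
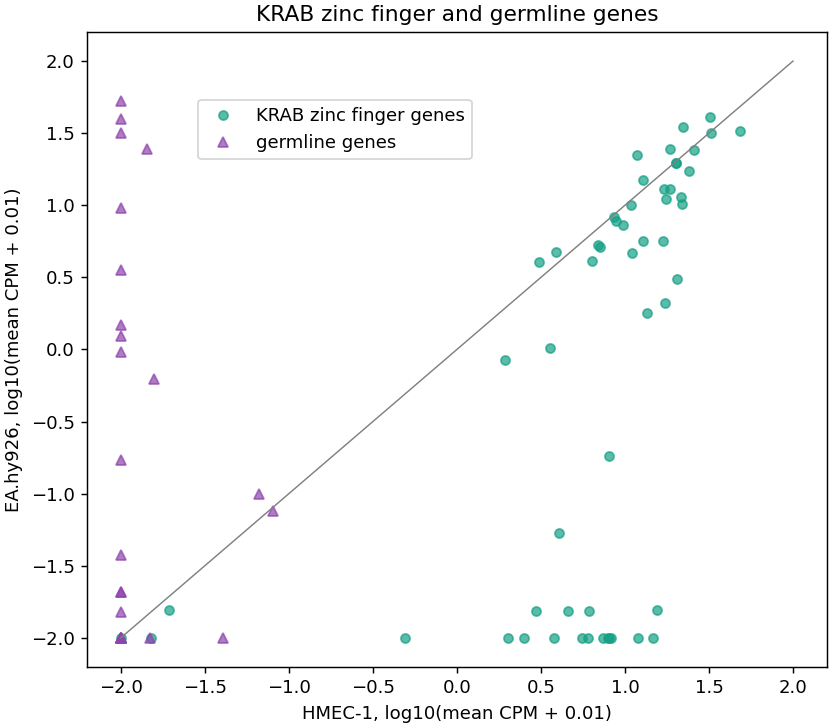
Mean level of each KRAB zinc finger gene (circles) and germline gene (triangles) in HMEC-1 (x axis) and EA.hy926 (y axis), as log10 of CPM plus 0.01, with a line of equal level. The 17 KRAB zinc finger genes without counts above the floor in EA.hy926 lie along the bottom and the 10 germline genes without them in HMEC-1 along the left edge.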

How the data were processed

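RNA-seq of 10 libraries was analysed, 5 of untreated EA.hy926 and 5 of untreated HMEC-1 cells, assigned to their line by the sample labels. mRNA was captured with oligo(dT) beads. The authors deposited the raw counts of every gene, with no normalization or filter. Their processing notes list fastp, HISAT2, featureCounts, DESeq2 and GRCh38, whereas the methods of the study name HTSeq as the counter. The annotation release, the strand setting and the treatment of multimapping reads are not given in the sources used here.

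From the counts, genes were named and located with GENCODE 44, which matched 56434 of 60448 genes. Genes with low counts were removed by filterByExpr (with 10 as the minimum count and 15 as the minimum total), and libraries were scaled by TMM factors and compared with edgeR's quasi-likelihood test (edgeR 4.0.16, R 4.3.3) without covariates. Benjamini-Hochberg adjustment covered the 16310 genes tested. Every adjusted p in the text is from this test, apart from those given for library totals, which are from the same test without TMM factors. The SE is the absolute log2FC over the square root of F, and intervals are 95% intervals of the fit. CPM divides a count by the TMM-scaled total, and CPM per kilobase divides it further by the length of all exonic bases. A gene with at most 3 counts in every library of a line, 0.0651 to 0.0904 CPM, was given only a lower bound. Bounds cover counting error only.

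The 10 genes and the related lists were chosen with earlier results of these data known. The genes named are all 10, and of each related list up to 3 in each direction with the largest absolute log2FC past both thresholds and at least 1 CPM in a line. Others are marked as chosen after their values were seen. The alternatives were DESeq2 1.42.0, limma-voom (limma 3.58.1), glmTreat, RLE factors, library totals, no filter, 10 counts in every library, the replicate number as a block and each library left out in turn. The edgeR step was tested on simulated counts. Replicates of a line differed by more than counting noise (chi-square per degree of freedom 3.11 to 7.80), so no library was a copy of another.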

Additional observations from a re-analysis of the deposited data

How the results depend on the processing

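Under every alternative run except glmTreat, which tests another null, 9 of the 10 silencing genes passed the adjusted p of 0.05, with UHRF1 the exception, other than with library totals, where DNMT3A did not pass (log2FC 0.0013) and UHRF1 did (-0.16). By both thresholds 1 (DNMT3B) passed with library totals, compared with 0 before. Library totals moved the median log2FC of all genes by -0.13 and the split of all genes past both thresholds from 3110 higher and 2674 lower to 2809 and 3085. With libraries left out in turn, the log2FC of UHRF1 ranged from -0.052 to 0.023. Without EA.hy926 replicate 1 the log2FC of UHRF1 was 0.023 and without replicate 2 it was 0.016. The 4 oxidation and excision genes became 2 with glmTreat and 2 with library totals, and 3 with no filter, without HMEC-1 replicate 2 and without HMEC-1 replicate 4. The HUSH and ATRX-DAXX count rose from 0 to 1 with library totals and with no filter, and ranged from 0 to 1 when libraries were left out (1 without HMEC-1 replicate 1, 2 or 3). The H3 lysine 9 demethylase count rose from 0 to 1 with limma-voom and ranged from 0 to 1 when libraries were left out (1 without EA.hy926 replicate 4 or 5 or HMEC-1 replicate 2 or 4). Requiring 10 counts in every library left 9 of 27 KRAB zinc finger genes and 0 of 9 germline genes, because it removes genes at 0 in a line. Across all genes, 5784 passed both thresholds, 9312 with no filter and 3255 with 10 counts in every library. The cause of the other changes was not tested. Same-numbered replicates showed little shared deviation (r from -0.023 to 0.039), which cannot exclude that they were prepared together. With the replicate number as a block, 9 of the 10 genes passed adjusted p and 0 passed both thresholds, and 5786 genes passed both overall. Counts limited TET1 the most of the 10 genes.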

Other observations

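The KRAB zinc finger and germline lists were set beside the wider families, chosen after the values of the lists were seen and given with no test. Of 240 protein-coding genes named ZNF on chromosome 19, 217 were tested, and 4 were higher and 108 lower in EA.hy926 by both thresholds, beside 19.1% and 16.4% of all genes tested. Of 236 on other chromosomes, 215 were tested, and 18 were higher and 47 lower. Genes near 0 in a line entered the test only through the other line and had to differ. Of the genes with over 3 counts in a library of both lines, 4 of 151 on chromosome 19 were higher and 42 lower, with a median log2FC of -0.20, and 16 of 196 elsewhere were higher and 30 lower, with a median of 0.0025. This cut does not remove every gene near the floor: ZNF649 on chromosome 19 had 3 to 10 counts in EA.hy926. On chromosome 19, 70 of the 240 ZNF genes had at most 3 counts in every EA.hy926 library and over 3 in every HMEC-1 library and 0 showed the reverse. Of the 236 elsewhere, the numbers were 18 and 2. In the whole table, which includes many genes without counts, the shares were 1.38% and 1.26%.

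Of 26 protein-coding MAGEA, MAGEB and MAGEC genes, 9 exceeded 3 counts throughout EA.hy926, 0 did so throughout HMEC-1, and 16 had at most 3 counts in all 10. In the whole table, 37014 of 60448 genes had at most 3 counts in all 10, and 1.26% were over 3 throughout EA.hy926 and at most 3 throughout HMEC-1. Some of the 9 came near the floor: MAGEB6 had 8 to 18 counts in EA.hy926, MAGEA2 9 to 80 and MAGEA2B 7 to 63. The highest count of any of the 26 genes in HMEC-1 was 4. Many of these genes are near-identical copies, so the split of reads between them is uncertain.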
